A study of Homo sapiens with 27 samples.

Results

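BON-1 is an established human pancreatic neuroendocrine tumour cell line. Here the comparison is between 3 BON-1 libraries transfected with MAML3 lacking exon 1 (dEx1) and 3 transfected with full-length MAML3 (FL). The libraries were taken by construct and paired by replicate number, and they are 6 of the 27 libraries of the study. All genes were compared, and 14556 of 23230 gene symbols had enough counts to be tested. Both groups carried the human MAML3 cDNA with a V5 tag at its C-terminal end in the plasmid pCMV6-AC, were transfected transiently with Lipofectamine, and gave RNA on day 3. A vector group of 3 BON-1 libraries received the same plasmid without MAML3. The labels call the 3 libraries of a group biological replicates, and p-values measure the spread between these samples of 1 line. The study made the same 3 groups in the neuroblastoma line SK-N-SH and in QGP-1, another pancreatic neuroendocrine tumour line.

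MAML3 is one of the 3 Mastermind-like proteins, nuclear coactivators best known for joining the complex of RBPJ and the intracellular part of a cleaved Notch receptor. The beginning of a Mastermind-like protein, coded by exon 1, holds the segment that binds that complex, and the rest of the protein holds regions that recruit coactivators. MAML3 gene fusions known from neuroendocrine tumours join another gene's start to MAML3 without its first exon, which is the form that dEx1 resembles.

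The piece that separates the constructs is exon 1 of MAML3 on the minus strand of chromosome 4. In the GRCh37 annotation it is the first of 5 exons, spans 141074014 to 141075338 and holds 468 of 3414 coding bases, or 13.7%. Its first 240 coding bases (chr4:141074242-141074481, minus strand) are shown because they are what dEx1 lacks, with the start codon in capitals.
MAML3 exon 1: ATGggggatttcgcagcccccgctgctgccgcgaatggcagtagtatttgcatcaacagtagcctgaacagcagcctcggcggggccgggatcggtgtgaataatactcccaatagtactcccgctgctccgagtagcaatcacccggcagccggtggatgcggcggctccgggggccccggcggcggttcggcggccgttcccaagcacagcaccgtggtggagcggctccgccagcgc

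MAML3 itself was at 2683, 3806 and 5148 CPM (counts scaled to library size) in FL replicates 1, 2 and 3. In dEx1 it was at 3086, 3527 and 3941 CPM. The vector libraries, which hold the cells' own MAML3 transcript, were at 65.9, 68.7 and 60.6 CPM. All 6 transfected libraries were far above all 3 vector libraries, and the dEx1 and FL values overlapped. The dEx1 minus FL difference was -0.10 on the log2 scale (SE 0.11, n = 3 pairs; edgeR adjusted p = 0.859), with 1 pair higher and 2 lower, and it was 0.044 without replicate 3. A count per gene does not show which exons the reads covered, so the absence of exon 1 was not checked here. MAML1 and MAML2, the other members of the family, differed by -0.02 and 0.11 on the log2 scale.

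Total counts ran from 92353136 to 110350759 over the 6 libraries. In a principal component analysis the first component, with 40.8% of the variance, set both replicate 3 libraries (44.1 and 55.6) apart from the other 4 (-33.9 to -18.5). Neuroendocrine markers such as chromogranin A were high in every library, with a summed level of 12886 to 24470 CPM in FL and 18821 to 24164 CPM in dEx1. The 5 epithelial markers summed to 12771 to 16139 CPM. Markers of leukocytes summed to at most 7.63 CPM, those of fibroblasts to at most 46.6 CPM and those of endothelial cells to at most 52.0 CPM, with ranges that overlapped between the groups. Vector replicate 1 stood apart from vector replicates 2 and 3 for some genes. Its BUB1 was at 17.6 CPM against 172 and 127 CPM, and its RPS18 at 1220 CPM against 658 and 623 CPM. Counts relative to vector are therefore also given without it.

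No gene passed an adjusted p of 0.05 in edgeR's quasi-likelihood test with the replicate pairs as blocks (0 of 14556 genes, 0%). The lowest adjusted p was 0.117. At an unadjusted p under 0.05 there were 1059 genes (7.28%), of which 518 were higher in dEx1 (3.56%) and 541 lower (3.72%). DESeq2 on the same design called 181 of 12862 genes (1.41%), 90 higher (0.7%) and 91 lower (0.708%). Of these, 30 were called by DESeq2 each time a pair was left out. With pairs left out in turn, edgeR called 0 genes without replicate 1, 3 without replicate 2 and 10 without replicate 3. The levels below are therefore given as measured values, and each adjusted p is from edgeR's quasi-likelihood test with Benjamini-Hochberg adjustment over all genes tested unless DESeq2 is named. The median log2 difference over all genes was 0.00, with 7399 genes higher in dEx1 and 7157 lower.

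Among the 10 genes of lowest p in the lower direction were a pair of neighbouring secreted matrix metalloproteases, MMP10 (stromelysin-2) and MMP1 (interstitial collagenase), which lie in the metalloprotease cluster of chromosome 11 at 102641233 to 102651359 and 102660132 to 102668891 (GRCh37). MMP10 was at 46.4, 40.9 and 62.2 CPM in FL and at 19.8, 13.9 and 23.8 CPM in dEx1, a log2 difference of -1.39 (SE 0.09, adjusted p = 0.117). Every dEx1 library was below every FL library, as for 435 of all genes tested (2.99%). MMP1 was at 183, 146 and 266 CPM in FL and at 114, 88.7 and 167 CPM in dEx1, a log2 difference of -0.69 (SE 0.05, adjusted p = 0.117). The 3 pairs differed by -0.68, -0.72 and -0.67, although the groups overlapped, and replicate 3 was the highest library of each. Over the 22 alternatives its difference ranged from -0.97 to -0.42, the smallest with the pairs unblocked and FL replicate 3 left out. Lower values in bulk RNA can come from fewer cells expressing a gene or from less RNA per cell, which cannot be told apart here.

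MMP3 (stromelysin-1), also a secreted metalloprotease, was at 3.55, 4.42 and 2.58 CPM in FL and at 0.106, 0.777 and 0.633 CPM in dEx1, and its vector libraries were at 0.251, 0.167 and 0.272 CPM. Its log2 difference was -2.96 (SE 0.56, adjusted p = 0.422), and DESeq2 called it with and without each pair. MMP3, RELB and the other genes named below only for their DESeq2 result were picked after their values were seen. MMP12 and MMP25 were also lower in every dEx1 library than in every FL library, at -3.05 and -1.51 on the log2 scale, as was MMP13 at -0.37. The membrane-type proteases MMP14 (-0.04) and MMP15 (0.00) and the gelatinase MMP2 (0.01) showed differences near 0. Of 24 tested genes of the list of metalloproteases and their inhibitors, 8 were lower and 1 was higher at an unadjusted p under 0.05, DESeq2 called 5, all lower, and the median log2 difference was -0.13. Over all genes, 3.72% were lower and 3.56% higher at that unadjusted p, and DESeq2 called 0.708% lower.

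The NF-kB family consists of the DNA-binding subunits, with RELA and NFKB1 in the canonical branch and RELB and NFKB2 in the alternative branch, and of feedback inhibitors such as NFKBIA. NFKB2 was at 82.4, 99.4 and 119 CPM in FL and at 53.1, 48.1 and 62.6 CPM in dEx1, a log2 difference of -0.87 (SE 0.10, adjusted p = 0.156). All 3 dEx1 libraries were below all 3 FL libraries. Of the vector libraries, at 65.0, 58.8 and 92.0 CPM, 1 lay between the groups, 1 within the dEx1 range and 1 within the FL range. RELB was at 10.98, 18.4 and 28.6 CPM in FL and at 5.40, 4.39 and 13.3 CPM in dEx1, a log2 difference of -1.39 (SE 0.22, adjusted p = 0.394). NFKBIA was at 56.2, 59.3 and 81.7 CPM in FL and at 43.3, 38.1 and 59.3 CPM in dEx1, a log2 difference of -0.49 (SE 0.08, adjusted p = 0.371). Both were lower in each pair, with overlap between the groups. RELA, at 0.05, and REL, at 0.12, had differences within 1 SE of 0, and NFKB1 was at -0.27 (SE 0.07).

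Of 16 tested NF-kB subunits and feedback genes, 13 were lower and 3 higher in dEx1, and 8 were lower at an unadjusted p under 0.05 with none higher (3.72% and 3.56% over all genes). DESeq2 called 5, all lower (0.708% over all genes): NFKB2, NFKBIA, RELB, the surface protein gene CD83 and TNIP1, which codes for a partner of the inhibitor TNFAIP3. The median log2 difference of the list was -0.20. By mean level, 9 of the 16 were above vector in FL and 3 in dEx1, against 6996 and 6838 of all 14556 genes. Without vector replicate 1 those counts were 9 and 1, against 7249 and 7322.

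Among secreted signals, the neutrophil chemokine CXCL8 was at 84.9, 105 and 202 CPM in FL and at 61.3, 65.7 and 105 CPM in dEx1, a log2 difference of -0.70 (SE 0.10, adjusted p = 0.319). The cytokine IL32 was at 10.5, 10.9 and 39.0 CPM in FL and at 5.86, 3.03 and 16.2 CPM in dEx1, a log2 difference of -1.31 (SE 0.20, adjusted p = 0.319). LTB, the lymphotoxin beta chain that signals through the lymphotoxin receptor, was at 0.951, 3.91 and 7.94 CPM in FL and at 0.170, 0.214 and 0.730 CPM in dEx1, a log2 difference of -3.44 (SE 0.34, adjusted p = 0.135). All 3 genes were lower in each pair and highest in replicate 3 of both groups. For LTB the groups did not overlap, and for CXCL8 and IL32 they did. Complement C3, at 2.17, 1.80 and 9.56 CPM in FL and 0.371, 0.515 and 1.95 CPM in dEx1, had a log2 difference of -2.21 (SE 0.19, adjusted p = 0.117). Over the 22 alternatives CXCL8 ranged from -1.04 to -0.30, IL32 from -2.18 to -0.36 and C3 from -3.34 to -1.07, in each case smallest with the pairs unblocked and FL replicate 3 left out and largest with them unblocked and dEx1 replicate 3 left out.

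The chemokine and inflammatory cytokine list had 19 tested members, of which 16 were lower and 3 higher, with a median log2 difference of -0.76. At an unadjusted p under 0.05, 10 were lower and 1 was higher (3.72% and 3.56% over all genes). The lower ones included CXCL2 (-1.29), CXCL10 (-1.13), CX3CL1 (-1.07) and CCL20 (-2.00). DESeq2 called 7 of the 19 lower and 1 higher (0.708% and 0.7% over all genes). The higher one was IL11, a cytokine of the interleukin 6 family, at 5.47, 9.16 and 7.18 CPM in FL and 10.2, 12.2 and 15.3 CPM in dEx1 (log2 difference 0.80, SE 0.15, edgeR adjusted p = 0.422). By mean level, 17 of the 19 were above vector in FL and 10 in dEx1, or 13 and 7 without vector replicate 1. Over all 14556 genes these were 6996 and 6838, or 7249 and 7322. The comparisons of each construct with vector share the vector libraries.

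**Figure D1:**
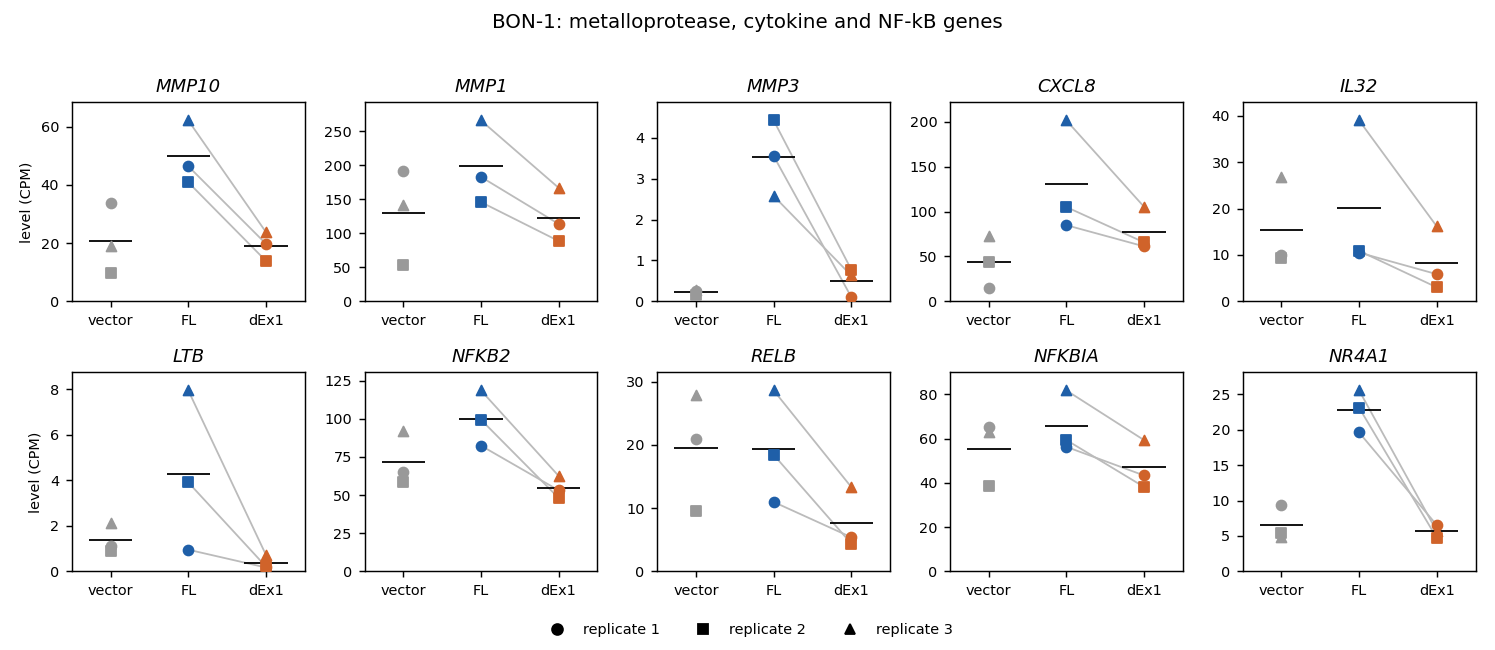
Levels in CPM (vertical axes, linear, each from 0) of 10 metalloprotease, cytokine, NF-kB and immediate early genes in the 9 BON-1 libraries, by construct. Symbols give the replicate, bars the group mean, and grey lines join FL and dEx1 of 1 pair. In each panel all 3 lines run downward from FL to dEx1, as for MMP10 from 46.4, 40.9 and 62.2 to 19.8, 13.9 and 23.8 CPM.

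Promoter sequences of 5 of these genes are shown because the genes were lower together in each pair and because AP-1 and NF-kB sites are textbook features of several of them. Each is the 150 bases before the annotated start in RefSeq (GRCh38.p14), 5′ to 3′ on the gene's strand. Capitals mark a match to AP-1 (TGANTCA) or to the NF-kB consensus (GGGRNWYYCC or GGRRWYYYCC) on either strand. N is any base, R is A or G, W is A or T and Y is C or T. IL32 has a pair of overlapping NF-kB matches. The CXCL8 sequence holds ggaatttcct, which differs from this strict consensus only in its last base and so is not in capitals. A missing capital therefore does not mean that a site is absent.
MMP10 (chr11:102780629-102780778, minus strand): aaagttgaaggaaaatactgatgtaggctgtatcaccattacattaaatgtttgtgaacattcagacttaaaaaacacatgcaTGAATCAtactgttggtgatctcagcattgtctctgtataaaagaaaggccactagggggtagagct
CXCL8 (chr4:73740419-73740568, plus strand): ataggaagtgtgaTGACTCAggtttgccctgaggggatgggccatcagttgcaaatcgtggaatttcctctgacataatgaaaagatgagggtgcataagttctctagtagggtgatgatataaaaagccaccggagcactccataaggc
IL32 (chr16:3065253-3065402, plus strand): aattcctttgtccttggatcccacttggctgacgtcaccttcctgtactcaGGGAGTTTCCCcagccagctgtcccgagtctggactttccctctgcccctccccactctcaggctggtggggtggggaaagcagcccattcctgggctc
NFKBIA (chr14:35404750-35404899, minus strand): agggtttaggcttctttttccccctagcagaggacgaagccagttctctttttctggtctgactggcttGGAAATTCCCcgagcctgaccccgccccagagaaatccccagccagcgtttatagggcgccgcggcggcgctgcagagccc
NFKB2 (chr10:102393960-102394109, plus strand): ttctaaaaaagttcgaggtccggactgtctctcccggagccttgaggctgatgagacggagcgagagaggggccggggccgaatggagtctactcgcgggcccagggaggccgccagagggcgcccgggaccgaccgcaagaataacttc

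The AP-1 match of MMP10 lies 67 to 61 bases before the start and that of CXCL8 137 to 131 bases before it. No match to either motif is in the 150 bases shown for NFKB2. In the 250 bases before the start, the NF-kB consensus is found in 8 of 13 chemokine and cytokine promoters and in 4 of 13 promoters of the NF-kB list, and in 7.6% of the 10867 promoters of tested genes. The AP-1 motif is found in 2 of 11 metalloprotease promoters and in 4.3% of those of tested genes. It is in 3 of 13 chemokine and cytokine promoters and in 0 of 13 of the NF-kB list. The NF-kB consensus is in 0 of the 11 metalloprotease promoters. These matches describe letters in a window and are not measurements of binding.

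NR4A1 codes for an orphan nuclear receptor of the immediate early class, whose members are transcribed within minutes of a stimulus. It was at 19.6, 23.1 and 25.5 CPM in FL and at 6.54, 4.74 and 5.69 CPM in dEx1, a log2 difference of -2.01 (SE 0.16, adjusted p = 0.117). The dEx1 values were close to those of the vector libraries, at 9.33, 5.44 and 4.83 CPM, and the FL values were above all of them. Of 24 immediate early and AP-1 genes, 8 were lower at an unadjusted p under 0.05 and none was higher (3.72% and 3.56% over all genes), with a median log2 difference of -0.14. ATF3, a stress-induced member, differed by -0.43 (SE 0.08) and EGR4 by -0.69 (SE 0.14). DESeq2 called NR4A1 and ATF3, both lower (0.708% over all genes).

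Among interferon-stimulated genes, IFIT2, an antiviral RNA-binding protein gene, was at 20.1, 14.3 and 49.2 CPM in FL and at 13.7, 8.60 and 20.3 CPM in dEx1, a log2 difference of -0.86 (SE 0.15, adjusted p = 0.422). SP110, a nuclear body protein gene, differed by -0.52 (SE 0.09, adjusted p = 0.422). Over the 22 alternatives IFIT2 ranged from -1.32 to -0.28 and SP110 from -0.74 to -0.22, both smallest with the pairs unblocked and FL replicate 3 left out. Of 38 tested members of the list, 35 were lower, and 24 were lower in every pair (15.7% over all genes). At an unadjusted p under 0.05, 21 were lower (3.72% over all genes), and the median log2 difference was -0.33. DESeq2 called 9, all lower (0.708% over all genes): IFIT1, IFIT2, IFIT3, MX1, IFI6, SP110, IRF1, OASL and HERC6.

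Relative to vector, by mean level, 3 of the 38 interferon genes were above vector in FL and 1 in dEx1, and 4 and 1 without vector replicate 1, against the shares of all genes given above. IFIT2, for example, was at 55.7, 17.9 and 64.8 CPM in vector. A match to the core of the interferon-stimulated response element, on either strand, is found in the promoters of 17 of 30 members and of 2.4% of tested genes. The nucleic acid sensor list, with 12 tested genes, had 10 lower members and a median of -0.19.

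The list of the urokinase system, cathepsins and serpins covers other proteases and their inhibitors. CTSB, the lysosomal protease cathepsin B, was at 254, 275 and 314 CPM in FL and at 206, 218 and 241 CPM in dEx1, with no overlap (log2 difference -0.34, SE 0.05, adjusted p = 0.319). The urokinase gene PLAU and its receptor gene PLAUR differed by -0.82 (SE 0.17) and -0.45 (SE 0.08). DESeq2 called these 3 of the 14 tested members of the list, all lower (0.708% over all genes). Of the 14, 13 were lower, with a median of -0.25. In the list of BCL2 and TNF family genes, 21 of 25 were lower. DESeq2 called LTB and XIAP, both lower (0.708% over all genes), and XIAP, an inhibitor of caspases, differed by -0.44 (SE 0.09).

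**Figure D2:**
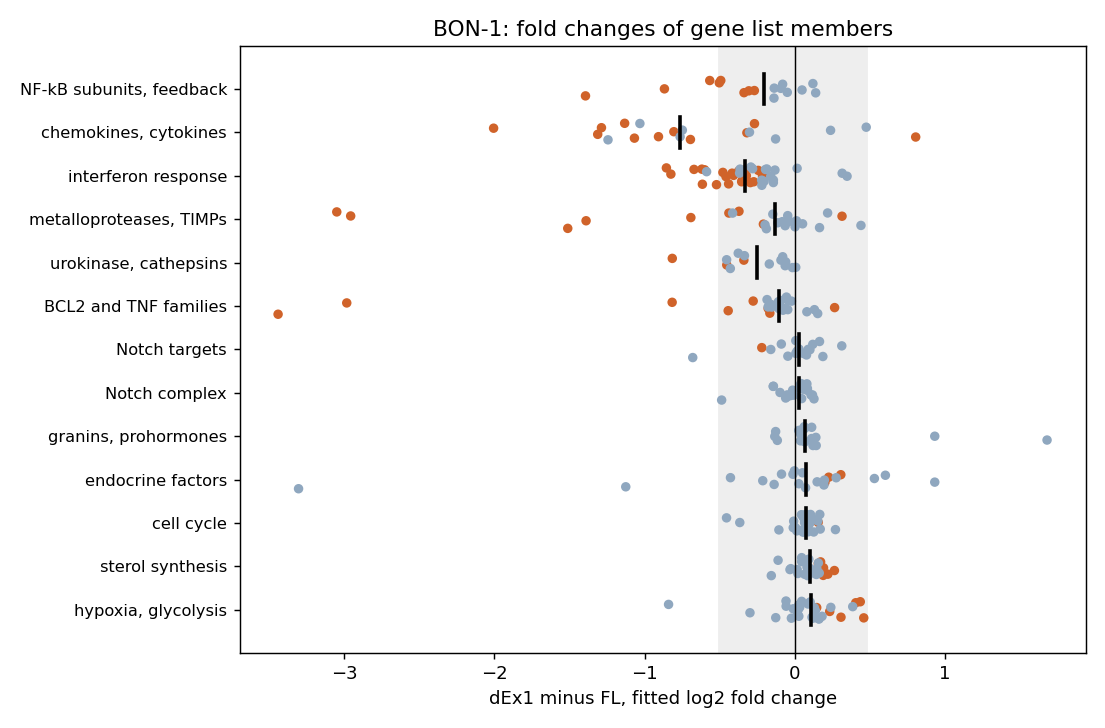
Fitted log2 fold change, dEx1 minus FL, of each tested member of 13 gene lists (1 point a gene, vertical position within a row has no meaning). Orange points have an unadjusted p under 0.05, black bars are list medians, and the grey band spans the 5th to 95th percentile of all genes tested, -0.50 to 0.48. The chemokine list has the lowest median drawn, -0.76, and the Notch target list lies at 0.03.

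Notch targets, by contrast, were near 0, a comparison relevant because exon 1 codes for the Notch complex contact. Whether either construct changed these targets relative to vector was not tested here. HES1, the classical target, was at 71.5, 81.9 and 87.6 CPM in FL and at 77.9, 76.6 and 91.1 CPM in dEx1, a log2 difference of 0.03 (SE 0.07). HEY1 was low, at 2.63, 1.90 and 2.68 CPM in FL and at 2.29, 2.41 and 3.11 CPM in dEx1. Of 17 tested Notch targets, 5 were lower and 12 higher. At an unadjusted p under 0.05, 1 was lower (DTX3L, -0.22, SE 0.06), against 3.72% over all genes. The list's median was 0.03, that of the Notch transcription complex 0.03 and that of Notch ligands, receptors and processing genes 0.08. In this last list the ligand gene JAG2 was higher, at 0.33 (SE 0.10), and APH1B, a gamma-secretase subunit gene, was lower, at -0.34 (SE 0.08).

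The genes of lowest p in the higher direction belonged to no single list. CLCA1, a secreted regulator of chloride channels known from mucous epithelia, was at 26.4, 34.9 and 22.8 CPM in FL and at 55.1, 93.6 and 48.0 CPM in dEx1, a log2 difference of 1.19 (SE 0.10, adjusted p = 0.117). Its vector libraries were at 4.21, 1.60 and 1.62 CPM, so both constructs were above vector and dEx1 above FL in every library. All dEx1 libraries were above all FL libraries for 380 of the genes tested (2.61%). AAGAB, which assists the assembly of clathrin adaptors, was at 59.1, 60.5 and 56.9 CPM in FL and at 92.9, 94.0 and 96.0 CPM in dEx1 (log2 difference 0.68, SE 0.06, adjusted p = 0.131). Its vector libraries, at 101, 90.5 and 90.1 CPM, were near the dEx1 values.

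GPR137 (0.63, SE 0.07, adjusted p = 0.154) and KIAA0232 (0.66, SE 0.08, adjusted p = 0.198) were higher in every dEx1 library than in every FL library. COL5A3, a fibrillar collagen chain gene, was low, at 0.507, 0.863 and 0.371 CPM in FL and 2.37, 3.11 and 1.86 CPM in dEx1 (log2 difference 2.12, SE 0.21, adjusted p = 0.135). The galanin neuropeptide gene GAL was at 104, 136 and 84.4 CPM in FL and at 142, 173 and 115 CPM in dEx1, higher in each pair (0.41, SE 0.06, adjusted p = 0.319). DESeq2 also called CDK6, a cell cycle kinase gene at 0.68 (SE 0.11), and the long noncoding RNA UCA1 at 2.45 (SE 0.51).

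In the lower direction, several genes outside the inflammatory lists were separated between the groups. CBX1, a heterochromatin protein gene, was at 67.2, 68.6 and 60.9 CPM in FL and at 36.2, 34.4 and 32.0 CPM in dEx1 (log2 difference -0.94, SE 0.07, adjusted p = 0.117). EMP2, a tetraspan membrane protein gene, was at 66.4, 65.4 and 51.4 CPM in FL and at 33.1, 20.03 and 18.1 CPM in dEx1 (-1.41, SE 0.15, adjusted p = 0.146). CGGBP1, which codes for a protein binding CGG repeats, was at 51.9, 45.8 and 58.9 CPM in FL and at 24.2, 27.5 and 28.6 CPM in dEx1 (-0.96, SE 0.10, adjusted p = 0.135). The scaffold gene AKAP12 (-0.62, SE 0.05) and the phospholipase gene PLA2G4C (-1.55, SE 0.16) completed the 10 genes of lowest p in this direction. AKAP12 ranged from -1.12 to -0.11 over the 22 alternatives, smallest with the pairs unblocked and FL replicate 3 left out.

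**Figure D3:**
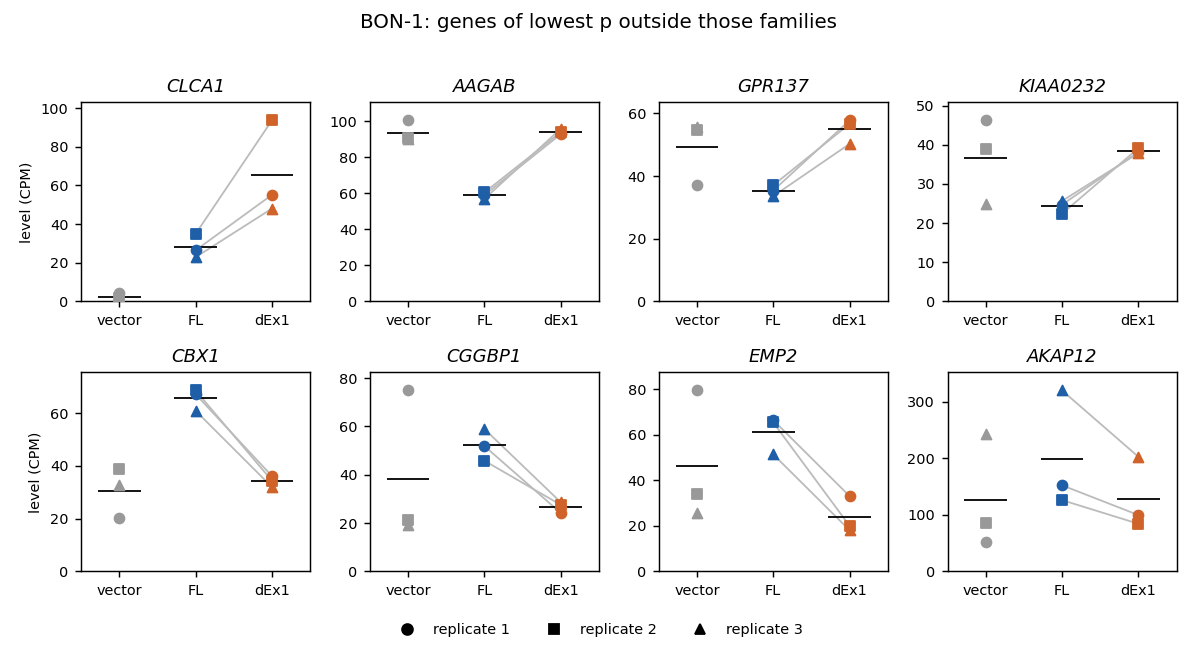
Levels in CPM (linear axes from 0) of 8 genes of low p outside the metalloprotease, cytokine and NF-kB families, in the 9 BON-1 libraries by construct, with symbols for replicates, bars for means and lines joining the pairs. CLCA1, AAGAB, GPR137 and KIAA0232 are higher in all 3 dEx1 libraries, and CBX1, CGGBP1 and EMP2 lower in all 3. AKAP12 is lower in each pair, with overlap between the groups.

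Genes of hormone production were compared in a pair of lists. Of 17 granin and prohormone processing genes, 14 were higher and 3 lower in dEx1, with a median of 0.06 and none at an unadjusted p under 0.05. The islet transcription factor gene NKX2-2 was at 43.3, 78.3 and 41.4 CPM in FL and at 49.3, 92.2 and 49.5 CPM in dEx1 (0.22, SE 0.06, adjusted p = 0.558), and RFX6 differed by 0.20 (SE 0.07). With FEV, at 0.31 (SE 0.11), they were the 3 of 21 pancreatic endocrine genes at an unadjusted p under 0.05, all higher (3.56% over all genes). The granin gene SCG2, at 1287, 5274 and 187 CPM in FL and at 5429, 989.6 and 4242 CPM in dEx1, and INSM1, an endocrine transcription factor gene (0.93, SE 0.49), varied widely between libraries of 1 group. The gut hormone gene PYY was lower, at 14.6, 19.3 and 3.75 CPM in FL and 5.90, 5.04 and 1.96 CPM in dEx1 (-1.41, SE 0.20, adjusted p = 0.319), and DESeq2 called it.

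Metabolic lists lay slightly above 0. Of 27 genes of sterol and fatty acid synthesis, 23 were higher, 16 in every pair (15.1% over all genes), with a median of 0.10. At an unadjusted p under 0.05, 7 were higher (3.56% over all genes). The desaturase gene SCD was at 1379, 1016 and 626 CPM in FL and at 1577, 1287 and 748 CPM in dEx1 (0.26, SE 0.05, adjusted p = 0.422), and DESeq2 called it together with the fatty acid synthase gene FASN (0.22, SE 0.04). Of 30 hypoxia and glycolysis genes, 23 were higher, 6 of them at an unadjusted p under 0.05 (3.56% over all genes), with a median of 0.11. CA9, a carbonic anhydrase gene induced by low oxygen, was the member DESeq2 called (0.40, SE 0.08). Over all genes, DESeq2 called 0.7% higher. Of 34 cell cycle genes, 29 were higher, with a median of 0.08 and 1 at an unadjusted p under 0.05 (3.56% over all genes).

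The same contrast was set beside SK-N-SH and QGP-1, whose libraries are independent of those of BON-1. In SK-N-SH, edgeR called 4256 of 14217 genes (29.9%), 2016 of them lower in dEx1 (14.2%). MMP10 fell there from 60.6, 79.8 and 99.2 CPM in FL to 3.69, 2.86 and 3.91 CPM in dEx1, a log2 change of -4.50 (SE 0.19, adjusted p = 0.00157). CXCL8 fell from 3823, 4828 and 1225 CPM to 47.4, 57.3 and 20.3 CPM, a log2 change of -6.22 (SE 0.14, adjusted p = 0.000618). In both lines these genes were below FL in every pair, and in SK-N-SH by more. The transfected gene was not at the same level in these lines. MAML3 averaged 11592 CPM in FL and 9084 CPM in dEx1 in SK-N-SH, against 3879 and 3518 CPM in BON-1. Its dEx1 minus FL difference in SK-N-SH was -0.42 (SE 0.10, adjusted p = 0.0425). Whether the MAML3 level bears on the size of the falls was not tested.

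The difference between the lines was tested itself. The dEx1 minus FL difference was not the same in BON-1 and SK-N-SH for 2930 of 16015 genes (18.3%), more positive in BON-1 for 1366 (8.53%) and more negative for 1564 (9.77%), and for 1096 genes in all without the replicate block. Leaving out each BON-1 pair gave 1582, 1671 and 1394 genes for dEx1 against FL, difference between BON-1 and SK-N-SH. For MMP10 the lines differed by 3.12 (SE 0.22, adjusted p = 0.000791), for MMP1 by 3.97 (SE 0.19, adjusted p = 0.000339) and for CXCL8 by 5.53 (SE 0.17, adjusted p = 0.000143) on the log2 scale. For NFKB2, at -0.87 in BON-1 and -1.25 in SK-N-SH, the difference of 0.39 (SE 0.16) had an adjusted p of 0.149, and for RELB, at -1.39 and -0.76, it was -0.62 (SE 0.33, adjusted p = 0.249). Of the 25 chemokines and cytokines tested, 15 were more positive in BON-1 and none more negative, as were 7 of 16 NF-kB genes and 12 of 40 interferon genes. Only 19 of these chemokines and 38 of these interferon genes had enough counts to be tested in BON-1 alone. For a gene near 0 in BON-1, such as CCL3, a fall in SK-N-SH alone makes the difference more positive, so these counts partly follow from the levels.

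Several genes went the other way. EMP2 was lower in BON-1 dEx1 and rose in SK-N-SH by 0.88 (SE 0.09, adjusted p = 0.00566), a difference of -2.28 (SE 0.19, adjusted p = 0.0014). CBX1 also rose in SK-N-SH, by 0.97 (SE 0.24, adjusted p = 0.0415), a difference of -1.90 (SE 0.29, adjusted p = 0.00822), and AKAP12 rose by 0.32 (SE 0.06, adjusted p = 0.0227), a difference of -0.93 (SE 0.07, adjusted p = 0.00107). COL5A3 and GAL, higher in BON-1 dEx1, were lower in SK-N-SH, at -2.92 (SE 0.57, adjusted p = 0.0243) and -1.05 (SE 0.20, adjusted p = 0.0213). NR4A1 went the same way in both lines, lower in SK-N-SH dEx1 at -0.88 (SE 0.19, adjusted p = 0.0312). Its BON-1 minus SK-N-SH difference was -1.12 (SE 0.28, adjusted p = 0.0389). These genes were named for their BON-1 values, so their differences between lines are not independent of that choice.

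**Figure D4:**
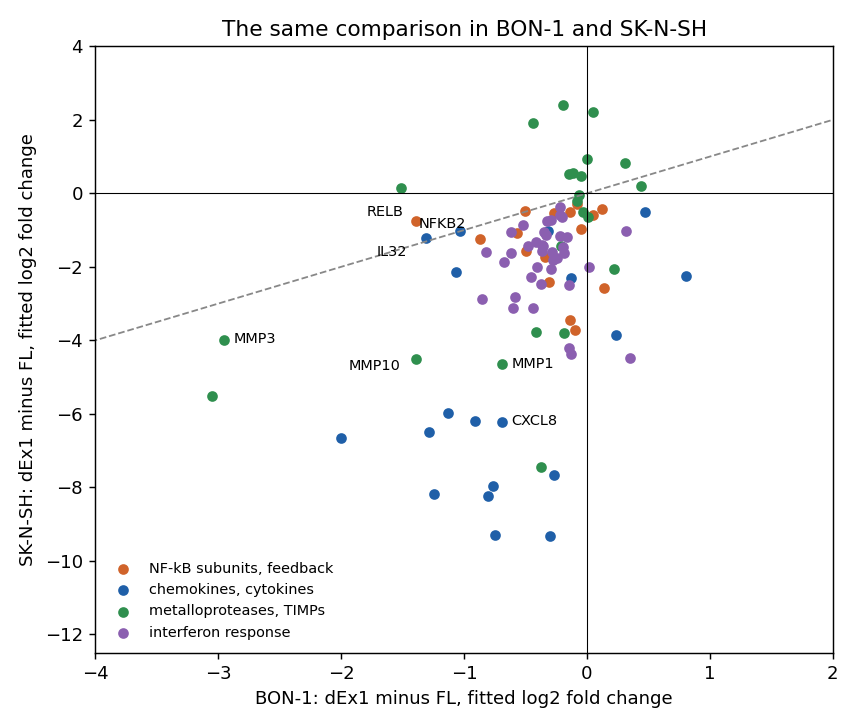
Fitted log2 fold change, dEx1 minus FL, in BON-1 (horizontal axis) and SK-N-SH (vertical axis, another range) for members of 4 gene lists tested in both, with equal change on the dashed line. The chemokine and interferon genes lie mostly in the lower left, below the line, as CXCL8 does at -0.70 and -6.22, and NFKB2 and IL32 lie near it.

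In QGP-1, edgeR called 1 of 14206 genes (0.00704%), the long noncoding RNA gene NORAD, higher in dEx1. MMP10 in QGP-1 was at 128, 213 and 181 CPM in FL and at 27.3, 40.8 and 25.01 CPM in dEx1 (-2.49, SE 0.14, adjusted p = 0.0955), and MMP1 was at 110.3, 182 and 135 CPM in FL and at 12.5, 19.0 and 6.32 CPM in dEx1 (-3.59, SE 0.30, adjusted p = 0.157). NR4A1 was at 44.4, 54.4 and 33.3 CPM in FL and at 19.1, 20.2 and 11.3 CPM in dEx1 (-1.40, SE 0.09, adjusted p = 0.114). For all 3 genes the groups did not overlap in QGP-1, where the share of all genes without overlap was not counted. MAML3 averaged 5885 CPM in FL and 4622 CPM in dEx1 in QGP-1 (-0.23, SE 0.15). No gene's difference between BON-1 and QGP-1 passed in edgeR (0 of 15641 genes, 0%), with 1175 at an unadjusted p under 0.05 and 131 by DESeq2. The lowest adjusted p, 0.0919, was shared by several genes, among them AAGAB, which was at -0.01 in QGP-1. MMP1 was another, with a BON-1 minus QGP-1 difference of 2.91 (SE 0.32), from -0.69 in BON-1 and -3.59 in QGP-1. The medians of the NF-kB, chemokine, interferon and metalloprotease lists were -0.12, -0.27, -0.15 and -0.12 in QGP-1. They cover 16, 8, 30 and 19 tested genes, against 16, 19, 38 and 24 in BON-1. Chemokines could be low there, as CXCL8 was, with means of 2.69 CPM in FL and 0.317 CPM in dEx1.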

How the data were processed

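The deposited table holds estimated counts per gene, which the authors deposited as whole numbers, a column for each library. The submitters' processing notes name Trimmomatic, HISAT2 and StringTie, without versions, and the build hg19. Libraries came from a TruSeq mRNA kit per the labels' protocols. The gene annotation, the strand of counting and the step to counts are not given in the sources used here, so what 1 count is worth is not known, and overlapping or near-identical genes may share reads. Of 23234 lines, 4 repeated a symbol with identical values.

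Counts, whole as deposited so that rounding changed nothing, were filtered with filterByExpr, scaled with TMM and tested with edgeR 4.0.16 in R 4.3.3 (quasi-likelihood F test, 6 libraries, replicate number as a block, threshold 0.05 after Benjamini-Hochberg adjustment over all genes). Differences between lines were the interaction in 1 fit of 12 libraries. Levels are CPM after TMM over the 9 libraries of a line, given by replicate, and pair differences are log2 CPM with a prior count of 2. Fold changes come from the fit, and SE from its F statistic. The pairing was checked: after subtraction of group means, libraries of the same number correlated at 0.288, 0.245 and 0.516, and others at -0.339 to 0.120. The procedure was tested on simulated data. DESeq2 1.42.0 and the other alternatives are in the closing section. DESeq2 without a block or without a pair was added after seeing the data.

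The comparison, the 33 gene lists and 7 marker lists were chosen with earlier results of these data known. Of them, the list of replication-dependent histone genes had 0 members in the table. Genes named are the MAML family, the 10 genes of lowest p in each direction whose higher group averaged 2 CPM or more and whose 3 pairs had 1 sign, the 2 members of lowest p of each list and the 5 largest and 5 smallest passed differences with each line, leaving uncharacterised, antisense and small RNA genes out of rankings. Others were picked after their values were seen. The text gives only some of the genes that the rule names, and 1 was left out of the tables of named genes and is not reported here. Promoters were matched to RefSeq by symbol (10867 of the tested genes), and figures drawn with matplotlib 3.10.9.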

Additional observations from a re-analysis of the deposited data

Results flagged for a closer look

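The 10 genes with the largest passed differences between BON-1 and SK-N-SH in the dEx1 minus FL contrast, 5 in each direction, are all at or near 0 in at least one group, so their fitted values depend on how zeros are treated. The contrast was more positive in BON-1, on the log2 scale, for IL1RN (16.22), SBSN (13.21), CCL3 (12.59), CSF3 (10.50) and BTC (9.55). It was more negative for GABRR1 (-14.77), ASPN (-9.21), MAF (-7.79), ERP27 (-7.70) and ITIH3 (-7.46). The chemokine CCL3 was at 45.3, 61.3 and 26.7 CPM in FL and at 0.0931, 0.447 and 0.193 CPM in dEx1 in SK-N-SH, and at 0, 0 and 0 CPM in FL and 0.0530, 0 and 0.0681 CPM in dEx1 in BON-1. BTC, an EGF receptor ligand, was at 2.86, 3.51 and 6.88 CPM in FL and 2.84, 2.39 and 6.26 CPM in dEx1 in BON-1. In SK-N-SH it was at 0.825, 1.32 and 1.27 CPM in FL and listed at 0 in all 3 dEx1 libraries. ASPN, a matrix proteoglycan gene, was at 0.0453, 0.105 and 0 CPM in BON-1 FL and at 0 in BON-1 dEx1, against 0.517, 0.313 and 0.761 CPM and 7.59, 7.92 and 7.78 CPM in SK-N-SH.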

How the results depend on the processing

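Against 0 calls, DESeq2 gave 181 genes (43 in the lists), DESeq2 with no replicate block 32 (6), and DESeq2 without pairs 1, 2 and 3 gave 123 (32), 118 (19) and 102 (20). The 181 are 1.41% of the 12862 genes DESeq2 tested. No total of list genes tested is given for the counts in brackets, so they cannot be read as many or few. The lists were also chosen with earlier results of these data known. Without each pair edgeR called 0 to 10: CCDC85C, CYB5R3 and INAFM2 without replicate 2, and without replicate 3 10 genes, among them PRNP and DPM1. Without the replicate block, with all 9 libraries, with no filter or a mean of 2 CPM, with DESeq2 size factors, a robust spread or counts divided by 5, edgeR called 0 in BON-1. At an unadjusted p under 0.05 there were 273 genes with no replicate block and 350 with all 9 libraries, against 1059. For dEx1 against FL, difference between BON-1 and SK-N-SH there were 1096 genes with no replicate block and 1394 to 1671 without each BON-1 pair, against 2930. That with QGP-1 had 131 by DESeq2, 1 with counts divided by 5 and 0 to 2 without each pair. MAML3 ranged from -0.25 to 0.044 without each pair and was 0.047 by DESeq2 without replicate 3 and 0.11 with no replicate block without FL replicate 3. In the same setting HES6 (-0.0014), FASN (-0.030), CREBBP (0.023), PLAUR (0.26), ATF3 (0.034), AREG (0.18), HBEGF (0.11), FST (0.75), AMOTL2 (0.19), HSPB8 (0.074), SNAI2 (0.077), LAMB3 (0.35), NEAT1 (0.30) and MAML1 (0.034) turned. MAML1 ranged from -0.051 to 0.033 without each pair and was 0.037 by DESeq2 without replicate 3 and 0.00074 with no replicate block without dEx1 replicate 1. With no replicate block, NKX2-2 (-0.14), RFX6 (-0.012) and AMOTL2 (0.0037) turned without dEx1 replicate 2, and ALDH1A1 (-0.085) without dEx1 replicate 3. The cause was not tested. Of the alternative values of the named genes other than MAML3, 1625 kept direction and side of the threshold, 128 passed it, all by DESeq2, and 21 reversed. The dEx1 and FL libraries of MMP10, NR4A1, NFKB2, CBX1 and CLCA1 did not overlap, so leaving libraries out could hardly reverse their sign. It stayed the same in all 22 alternatives, as it also did for MAML2 (0.11), MYC (0.08) and RPS18 (0.06). LTB, MMP3, MMP12 and COL5A3 rest on low counts, which limits the precision of their fold changes.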

Other observations

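Other lists held single genes of low p. The EGF receptor ligand gene AREG was at 20.7, 22.6 and 63.9 CPM in FL and at 16.4, 13.4 and 43.9 CPM in dEx1, a log2 difference of -0.54 (SE 0.10, edgeR adjusted p = 0.422). ANKRD1, a YAP and TEAD target, was at 17.9, 17.7 and 36.2 CPM in FL and at 10.1, 12.5 and 28.4 CPM in dEx1, with vector at 0.906, 1.63 and 8.75 CPM (-0.56, SE 0.11, adjusted p = 0.424). The activin inhibitor gene FST differed by -0.50 (SE 0.09). The lists of Wnt targets, heat shock genes, YAP and TEAD targets and axon guidance genes had medians of 0.07, 0.00, 0.01 and 0.01.

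Among 7670 genes with a mean of at least 20 CPM, 15 had a gap of at least 1.2-fold between the lowest library of one group and the highest of the other, 7 higher in dEx1 and 8 lower. The widest gaps were those of MMP10 (1.72-fold), CBX1 (1.68-fold), CGGBP1 (1.60-fold), EMP2 (1.55-fold) and AAGAB (1.54-fold). The cell adhesion gene CADM4 was at 34.4, 38.3 and 36.6 CPM in FL and at 22.6, 23.0 and 21.97 CPM in dEx1 (-0.69, SE 0.07, adjusted p = 0.146).

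In 13 of 4576 genes with a mean of at least 50 CPM, at least 1 pair differed by 2 or more on the log2 scale, and examples follow. CLDN4, a tight junction gene, was at 6.48, 370.2 and 716 CPM in FL and at 8.08, 8.58 and 10.2 CPM in dEx1, with 12.1, 5.95 and 6.83 CPM in vector. The transcription factor gene CEBPB was at 2.15 CPM in dEx1 replicate 2 and between 61.4 and 89.0 CPM in the other 5 FL and dEx1 libraries. Of the 12 of these genes with a canonical transcript in the GRCh37 annotation, 5 have a single exon (ATXN7L3B, CEBPB, CLDN4, INSM1 and RAP2B), or 41.7%, against 1.3% of all genes at that level. Whether the jumps reflect expression or the assignment of counts to genes was not tested. These genes were chosen after their values were seen.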
